A study of Mus musculus with 2 samples.

Results

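A set of 10 genes of the pathway by which the liver senses and controls iron was followed in mouse liver with and without Iah1, the mouse counterpart of the yeast gene for isoamyl acetate-hydrolysing esterase. They were picked by symbol: the ligand genes Bmp2 and Bmp6, the iron sensor genes Tfr2, Hfe and Hfe2, the hepcidin gene Hamp, the SMAD target genes Smad7 and Id1, and the iron transport genes Tfrc and Slc40a1. All 10 of 10 were measured, out of 22180 genes with a probe set of their own, and each had 1 probe set, so the gene value is that of its probe set. Hfe2 is annotated under its present symbol, Hjv. The genes were chosen with the differences between these arrays in view, so the values below describe the arrays and test nothing.

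The Iah1-KO group was male mice lacking Iah1 in the whole body, and the Iah1-WT group was male wild-type mice. Both received chow until 6 weeks of age and high-fat food for the next 12 weeks, in single housing, and were killed after 4 hours without food. Liver RNA of 3 mice was pooled for each genotype and hybridised to 1 Affymetrix array. The spread between mice is therefore not measured, no value has a replicate, and no p-value can be given. Values are RMA signals, which are background-corrected, equalised between arrays and on the log2 scale, and every difference is Iah1-KO minus Iah1-WT, so that a negative value means less signal in Iah1-KO.

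Hepcidin is a peptide hormone that hepatocytes release into blood. It binds ferroportin, the iron exporter encoded by Slc40a1, and has it degraded, so that less iron leaves macrophages, hepatocytes and the gut. In the liver the bone morphogenetic proteins BMP2 and BMP6 are made mainly by sinusoidal endothelial cells. They bind receptors and the co-receptor hemojuvelin on neighbouring hepatocytes, where SMAD proteins then switch on Hamp together with Id1 and Smad7.

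The targeted gene had a signal of 3.90 in the Iah1-KO array and 8.59 in the Iah1-WT array, and the Iah1-KO value lay below the intensity filter described next. Genes entered the counts where the brighter array reached 4.68, the median of all genes' brighter values, and 11090 genes did so. Their differences had a median of -0.02, and 44.3% lay above 0. Differences were wider in dim genes. When genes were divided by signal into 4 groups of equal size, the SD was 0.36 for the dimmest, then 0.28 and 0.20, and 0.16 for the brightest. Different probe sets of the same gene disagreed with an SD of 0.27 (604 genes). This spread covers probes and not mice, labelling or hybridisation. Both arrays were above the filter for all 10 genes.

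The 2 endothelial ligand genes were lower in the Iah1-KO liver, while the hepcidin gene and the SMAD targets Smad7 and Id1 were not. Other BMP target genes lay on both sides of 0. Of the 10 genes, 2 were lower by 1.5-fold or more (0.58 on the log2 scale), both of them ligand genes, and 0 were higher by that much. Among all genes passing the filter, 2.45% were lower and 1.47% higher at this size. Since the genes were picked with these differences known, the counts are not read against those shares. At a smaller threshold of 0.32 on the log2 scale, Slc40a1 joined the lower genes and Smad7 was the higher gene, where 10.4% of all genes were lower and 6.62% higher. By sign, 4 genes lay above 0 and 6 below, with a median difference of -0.10.

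**Figure D1:**
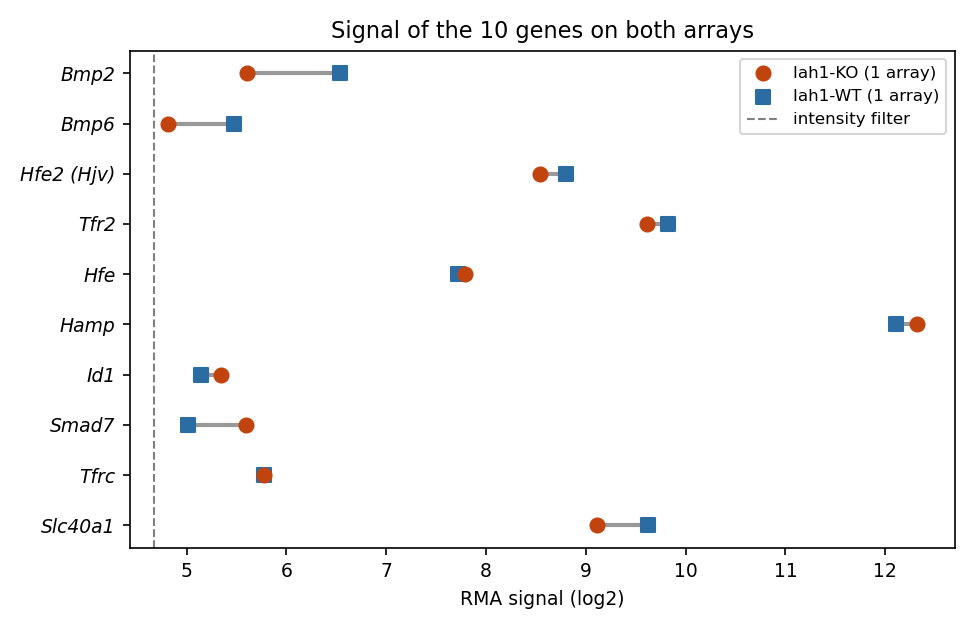
RMA signal (log2, horizontal axis) of each of the 10 genes in the Iah1-KO array (circles) and the Iah1-WT array (squares), with the intensity filter as a dashed line. The longest bars are those of Bmp2 (5.61 in Iah1-KO, 6.54 in Iah1-WT) and Bmp6 (4.81 in Iah1-KO, 5.48 in Iah1-WT), while the points of Tfrc coincide.

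Bmp2, the endothelial ligand gene, had a signal of 5.61 in the Iah1-KO array and 6.54 in the Iah1-WT array. It was 1.91-fold lower, a difference of -0.93, against an SD of 0.28 among genes in its group of signal. Among the 11090 genes, 0.433% had a more negative difference. Bmp6, the ligand gene whose expression in the liver is raised by iron loading, had 4.81 in the Iah1-KO array and 5.48 in the Iah1-WT array. It was 1.59-fold lower, a difference of -0.67 against an SD of 0.36 for dim genes, and its Iah1-KO value lay close to the filter. For Bmp6, 1.53% of genes had a more negative difference.

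The other genes for BMP ligands differed less. Of 10 ligand genes measured, 7 passed the filter, 6 of them lay below 0, and their median was -0.24. Gdf2, which encodes BMP9, a ligand that hepatic stellate cells produce, had 5.33 in the Iah1-KO array and 5.67 in the Iah1-WT array. Bmp10, a ligand that shares receptors with BMP9, had 5.04 in the Iah1-KO array and 5.29 in the Iah1-WT array. Without Bmp2 and Bmp6 the median of the 5 remaining ligand genes was -0.17.

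Sinusoidal endothelial markers moved with the ligand genes. All 13 of 13 markers passed the filter in both arrays, and all were lower in Iah1-KO. Their median was -0.58, and 6 reached 1.5-fold. Among all genes passing the filter, 2.45% were lower at this size and 44.3% lay above 0. The list was chosen with earlier results of these data known, so its counts are not read against those shares. The markers reached from -0.99 for Ehd3, an endocytic trafficking gene, to -0.25. Lyve1, a hyaluronan receptor gene, was at -0.83, Tek, the angiopoietin receptor gene, at -0.66, and Oit3 at -0.62. The summed linear signal of the 13 markers was 2606 in the Iah1-KO array and 3875 in the Iah1-WT array, a ratio of 0.672. Bmp2 was lower than 12 of the 13 markers, at -0.35 from their median, and Bmp6 was lower than 11 of them, at -0.09 from their median. In RNA of whole tissue, fewer cells of a type and less RNA per cell cannot be told apart, and the part of endothelial content in the ligand values was not tested.

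**Figure D2:**
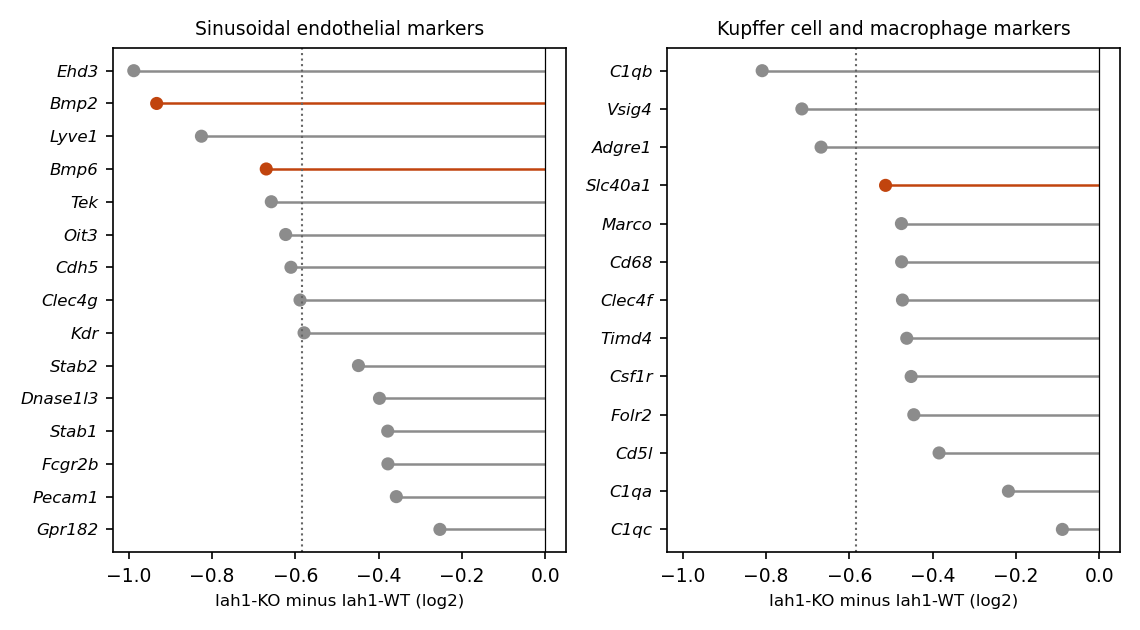
Difference between the arrays (log2, Iah1-KO minus Iah1-WT, horizontal axis) of each sinusoidal endothelial marker with Bmp2 and Bmp6 (left) and each Kupffer cell and macrophage marker with Slc40a1 (right), with 1.5-fold as a dotted line. Bmp2 (-0.93) stands next to Ehd3 (-0.99) at the low end of the endothelial markers, and Slc40a1 (-0.51) lies among the macrophage markers.

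Receptors and SMAD proteins carry the ligand signal into the hepatocyte. Of 8 receptor genes measured, 7 passed the filter, 4 lay below 0 and none reached 1.5-fold. Their median was -0.10, but 0.0059 without the intensity filter and 0.0020 with a stricter filter. Eng, an endothelial co-receptor gene, had the most negative difference, with 8.65 in the Iah1-KO array and 9.08 in the Iah1-WT array. Bmpr1a, a type I receptor gene that hepatocytes use for BMP2 signals, had 6.79 in the Iah1-KO array and 6.52 in the Iah1-WT array. Acvrl1, the endothelial type I receptor gene, was at -0.21 and Acvr2b, a type II receptor gene, at 0.18. The 6 SMAD genes had a median of 0.05. Among them Smad1, a transducer of BMP signals, was at 0.23, Smad9, another transducer, at -0.33 and Smad6, an inhibitor, at -0.15.

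Genes that restrain or release BMP signals had differences of both signs. Of 15 measured antagonists and modulators, 11 passed the filter, 7 above and 4 below 0, with a median of 0.05 and none at 1.5-fold. Erfe, which encodes the erythroid hormone erythroferrone that lowers hepcidin by binding BMPs, had 4.71 in the Iah1-KO array and 4.31 in the Iah1-WT array, the Iah1-WT value below the filter. Fst, the activin-binding follistatin gene, was at 0.26, Twsg1, a BMP-binding protein gene, at -0.21, and Chrd, the chordin gene, at -0.28 with its Iah1-KO value below the filter.

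The iron sensors of the hepatocyte lay slightly below or near 0. Hfe2, which encodes hemojuvelin, the BMP co-receptor, had 8.55 in the Iah1-KO array and 8.80 in the Iah1-WT array, a difference of -0.25. Tfr2, a sensor of iron-loaded transferrin, had 9.62 in the Iah1-KO array and 9.82 in the Iah1-WT array, a difference of -0.20. Hfe, whose protein leaves transferrin receptor 1 when transferrin is loaded, had 7.79 in the Iah1-KO array and 7.72 in the Iah1-WT array, a difference of 0.07. The brightest group of genes, which holds all of these sensors, had an SD of 0.16, which Hfe2 and Tfr2 passed and Hfe did not. All of these differences were smaller than the 0.27 by which probe sets of the same gene disagree.

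The wider list of iron sensing genes had 8 members measured, 7 of them below 0, with a median of -0.14 and none at 1.5-fold. Among all genes passing the filter, 44.3% lay above 0. Without Tfr2, Hfe and Hfe2 the remaining 5 all lay below 0, with a median of -0.07. Neo1, which encodes neogenin, a binding partner of hemojuvelin, had the most negative difference, with 6.62 in the Iah1-KO array and 7.10 in the Iah1-WT array. Ireb2, an iron-regulatory RNA-binding protein gene, was at -0.21. Tmprss6, which encodes the protease that cleaves hemojuvelin, had 9.65 in the Iah1-KO array and 9.72 in the Iah1-WT array.

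**Figure D3:**
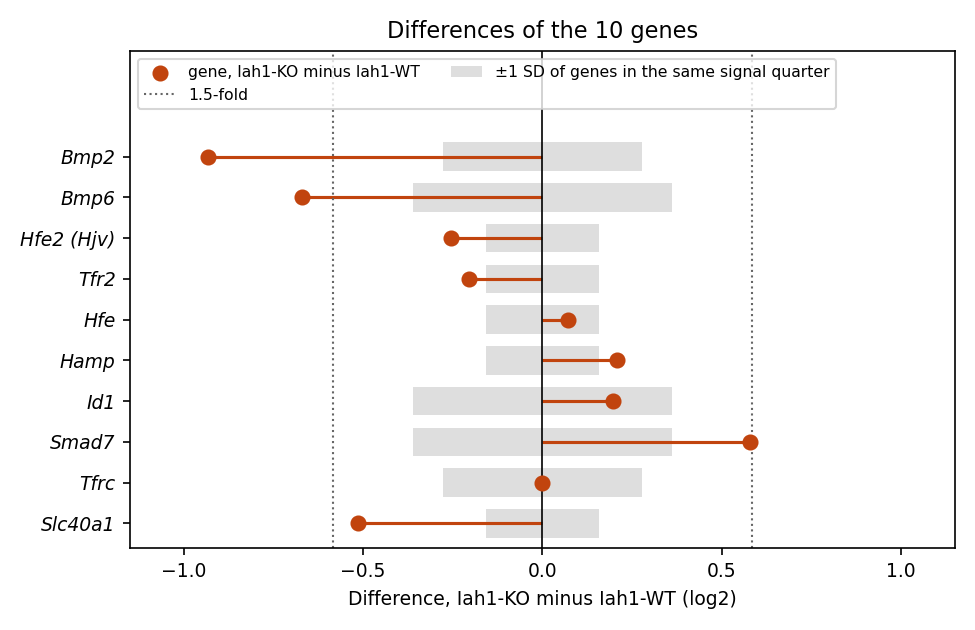
Difference between the arrays (log2, Iah1-KO minus Iah1-WT, horizontal axis) of the 10 genes, ordered by role. Grey bars are plus and minus 1 SD of all genes in the same group of signal, and dotted lines mark 1.5-fold. Bmp2, Bmp6, Hfe2, Tfr2 and Slc40a1 lie to the left of their bars and Smad7 (0.58) and Hamp (0.21) to the right, while Hfe, Id1 and Tfrc lie within theirs.

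Hamp, the gene of the hormone itself, was not lower in the liver with the lower ligand signals. It had 12.3 in the Iah1-KO array and 12.1 in the Iah1-WT array, a difference of 0.21 or 1.16-fold higher. This difference was smaller than the 0.27 by which probe sets of the same gene disagree. The brightest of the 4 groups of genes, which holds Hamp, had an SD of 0.16, and 12.9% of all genes had a more positive difference than Hamp. Its neighbour on chromosome 7, Hamp2, is a close copy that encodes another hepcidin peptide in the mouse. Hamp2 had 7.21 in the Iah1-KO array and 6.76 in the Iah1-WT array, a difference of 0.45. The probe sets of these copies can share signal, so the values of each are uncertain.

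The sequences upstream of these copies are shown because SMAD and STAT3 proteins act on Hamp through short sites close to its start. They are the 250 bases before the start site in RefSeq (GRCm38.p6), both on the minus strand, at chr7:30944030-30944279 for Hamp and chr7:30924182-30924431 for Hamp2. Capitals mark GGCGCC, the core of the BMP response element, and TTCNNNGAA, a STAT site, searched on both strands. The searched motifs do not overlap each other here.
Hamp: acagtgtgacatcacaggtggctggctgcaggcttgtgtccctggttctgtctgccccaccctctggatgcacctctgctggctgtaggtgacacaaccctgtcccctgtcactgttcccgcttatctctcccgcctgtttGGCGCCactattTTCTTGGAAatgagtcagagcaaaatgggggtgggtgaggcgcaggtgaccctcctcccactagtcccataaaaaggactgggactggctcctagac
Hamp2: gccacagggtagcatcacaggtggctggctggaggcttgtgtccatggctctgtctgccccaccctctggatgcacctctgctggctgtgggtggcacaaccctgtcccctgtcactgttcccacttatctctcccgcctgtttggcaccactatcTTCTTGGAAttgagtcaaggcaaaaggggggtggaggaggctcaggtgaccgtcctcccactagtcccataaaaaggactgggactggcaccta

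Hamp held GGCGCC at position -109 from the start site and the STAT site at -97. Hamp2 held the STAT site at -94 but not GGCGCC. Of 247 aligned positions, 227 were identical in both genes (91.9%), and in the BMP element Hamp2 differed by G4A, counted from the first base of GGCGCC. Among 32851 upstream windows of the same length, 9.59% held GGCGCC and 7.02% held the STAT site. Promoter entries matched 5 of the 10 genes, Hamp, Bmp6, Tfr2, Tfrc and Hfe. Of these, Tfrc also held GGCGCC, at -89 in 1 of its upstream windows but not in the other. No entry of these 5 genes other than that of Hamp held the STAT site. Among the other BMP target genes with an entry, Id2 (at -231) and Id4 (at -148) held GGCGCC, and Id3, Smad6 and Atoh8 held neither motif. A match of letters is a description and does not show that a site is used.

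Smad7 and Id1 also respond to BMP signals in hepatocytes. RNA of whole tissue does not show which cells their signals came from. Smad7, an inhibitor that damps the pathway, had 5.59 in the Iah1-KO array and 5.01 in the Iah1-WT array. It was 1.49-fold higher, a difference of 0.58 that lay just short of 1.5-fold, against an SD of 0.36 for dim genes, and 1.53% of genes had a more positive difference. Quantile normalization repeated on the deposited values or a loess fit on signal placed it past 1.5-fold, at 0.61 and 0.60. Id1, which encodes an inhibitor of bHLH transcription factors, had 5.34 in the Iah1-KO array and 5.14 in the Iah1-WT array. Its difference of 0.20 was within the SD of dim genes and smaller than the 0.27 by which probe sets of the same gene disagree.

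The list of BMP and SMAD target genes had 10 members measured, all above the filter, with 7 above 0 and 3 below. Their median was 0.15, beside -0.02 for all genes, and none reached 1.5-fold. Without Hamp, Smad7 and Id1 the remaining 7 had a median of 0.06, with 4 above 0. Apart from Hamp2, these were Bambi, a decoy receptor gene, at 0.18, Id3 at 0.12, Atoh8 at 0.06, Id4 at -0.08, and Id2 and Smad6, both at -0.15. These genes lay on both sides of 0.

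**Figure D4:**
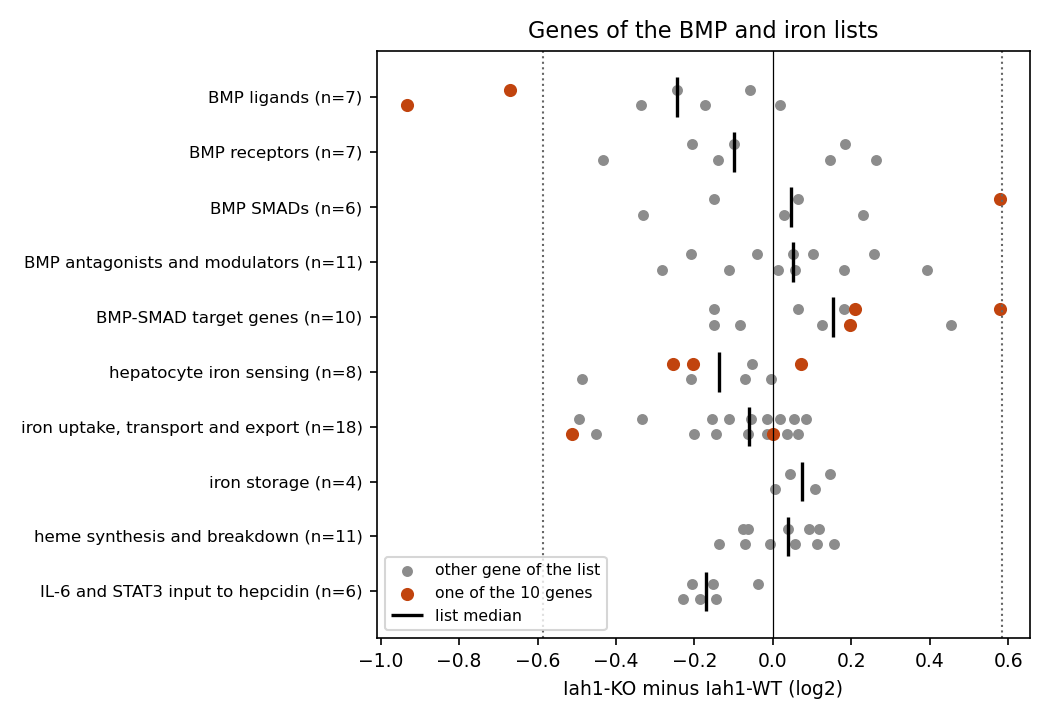
Difference between the arrays (log2, Iah1-KO minus Iah1-WT, horizontal axis) of every gene passing the filter in each BMP or iron list, with list medians as black bars and 1.5-fold as dotted lines. The ligand list has a median of -0.24 and the target list of 0.15, and Bmp2 and Bmp6 are the points left of the lower 1.5-fold line.

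Interleukin-6 signals through STAT3 are the other main input to Hamp. Il6 itself was below the filter in both arrays. Of 8 genes of this input measured, 6 passed the filter. All 6 lay below 0, with a median of -0.17 and none at 1.5-fold. Among all genes passing the filter, 44.3% lay above 0. Each of the 6 differences was smaller than the 0.27 by which probe sets of the same gene disagree. Stat3 itself was at -0.04, and Socs3, like Il6, was below the filter in both arrays. Il6st, the shared receptor subunit gene, was at -0.23, Creb3l3, a hepatocyte transcription factor gene that also acts on Hamp, at -0.21, the kinase gene Jak1 at -0.19, and the receptor gene Il6ra at -0.15.

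Slc40a1, the ferroportin gene, had 9.11 in the Iah1-KO array and 9.62 in the Iah1-WT array. It was 1.43-fold lower, a difference of -0.51 against an SD of 0.16 in the brightest group of genes. Of all genes, 3.61% had a more negative difference. Ferroportin is abundant in Kupffer cells, which recycle iron from red cells. All 12 of 12 Kupffer cell and macrophage markers passed the filter in both arrays and lay below 0. They reached from -0.81 to -0.09, with a median of -0.47, and 3 were lower by 1.5-fold. Among all genes passing the filter, 2.45% were lower at this size and 44.3% lay above 0. This list, too, was chosen with earlier results known, and its counts are not read against those shares. The complement gene C1qb was at -0.81, Vsig4, a complement receptor gene, at -0.71, Adgre1, which encodes F4/80, at -0.67, and the scavenger receptor gene Marco at -0.47. The other C1q genes differed less, with C1qa at -0.22 and C1qc at -0.09. The summed linear signal of the 12 markers was 1745 in the Iah1-KO array and 2500.2 in the Iah1-WT array, a ratio of 0.698. Slc40a1 lay at -0.05 from their median, and the part of macrophage content in its value was not tested.

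Tfrc, the gene of transferrin receptor 1, which takes up iron-loaded transferrin, had 5.78 in the Iah1-KO array and 5.78 in the Iah1-WT array. Its messenger RNA is stabilised when a cell is short of iron. The difference was 0.00 (-0.00014), and it turned to 0.03 with the loess fit or repeated quantile normalization.

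Among 19 measured genes of iron uptake, transport and export, 18 passed the filter, 13 below and 5 above 0, with a median of -0.06 and none at 1.5-fold. After Slc40a1 the most negative were Cd163, the macrophage receptor gene for haemoglobin bound to haptoglobin, with 5.86 in the Iah1-KO array and 6.36 in the Iah1-WT array, and the heme exporter gene Flvcr1, with 5.59 in the Iah1-KO array and 6.04 in the Iah1-WT array. Slc39a8, a transporter gene for zinc, manganese and iron, was at -0.33. Iron storage genes lay at or just above 0 in all 4 members that passed the filter, with a median of 0.08. Fth1, the ferritin heavy chain gene, was at 0.00 (0.0042), Ncoa4, the receptor gene for ferritin breakdown, at 0.15, and the iron chaperone genes Pcbp1 and Pcbp2 at 0.11 and 0.04.

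Genes of heme synthesis and breakdown had a median of 0.04 over 11 members, 6 above and 5 below 0. The differences reached from -0.14 for Alas1, the first and rate-limiting enzyme in the liver, to 0.16 for Urod, with Alad at 0.12 and Uros at 0.11, all in the synthesis pathway. None of the BMP and iron lists other than the ligands held a gene past 1.5-fold.

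Other cell types were set beside these values. All 9 hepatocyte markers passed the filter in both arrays. They had a median of -0.01 and stayed between -0.13 for the urea cycle gene Cps1 and 0.04 for the tyrosine aminotransferase gene Tat, with Hnf4a and Ahsg both at -0.07. Their summed linear signal was 37514 in the Iah1-KO array and 38180.3 in the Iah1-WT array. Among 8 stellate cell markers 6 lay below 0 and the median was -0.18, with Lrat at -0.52, Ngfr at -0.39 and Pdgfrb at -0.29. Des was at 0.93 with its Iah1-WT value below the filter. Another probe set, which names Des and Gm15179, was at 0.31 and below the filter in both arrays. The summed signal of the 8 stellate cell markers was 1771 in the Iah1-KO array and 2002 in the Iah1-WT array. Of 4 measured erythroid markers, Slc4a1 (-0.44) and Klf1 (-0.33) passed the filter, both of them dim and below it in the Iah1-KO array. The summed signal of Slc4a1 and Klf1 was 44.4 in the Iah1-KO array and 58.0 in the Iah1-WT array. The probe set of Alas2, another erythroid marker gene, also names Apex2 and was not counted. It had 8.89 in the Iah1-KO array and 8.85 in the Iah1-WT array, and cannot be assigned to Alas2 alone.

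**Figure D5:**
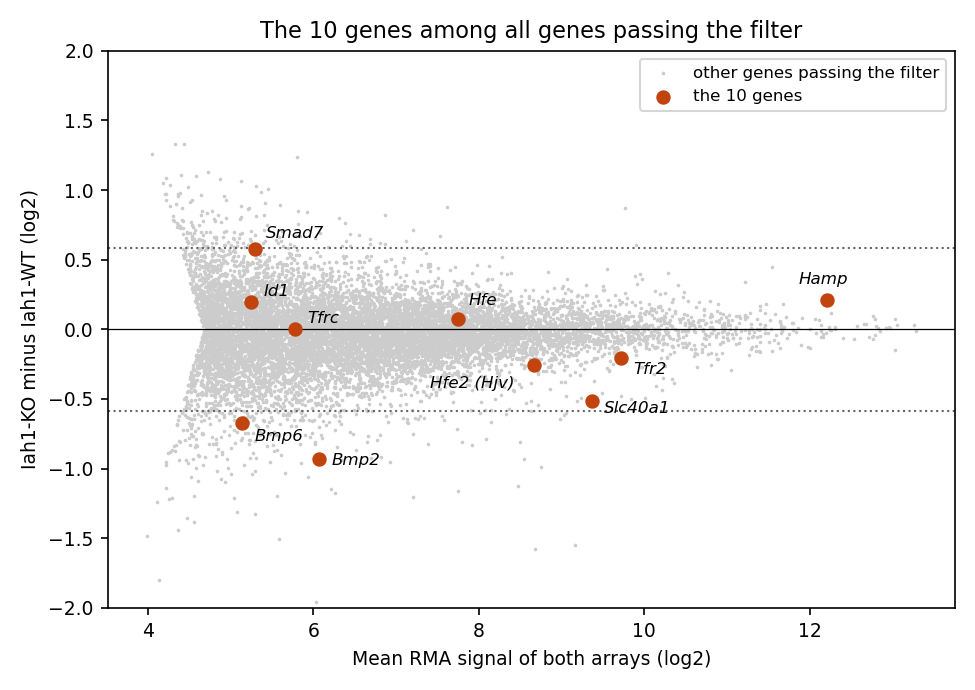
Difference between the arrays (log2, Iah1-KO minus Iah1-WT, vertical axis) against mean RMA signal (log2, horizontal axis) of genes passing the filter, with the 10 genes in red and 1.5-fold as dotted lines. Differences narrow as signal grows, and 1 gene, Iah1 (-4.69), is outside the plotted range.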

How the data were processed

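Liver RNA pooled from 3 mice per genotype was measured on 1 Affymetrix whole-transcript array each. The deposited table holds 1 log2 value per probe set and array, for 41345 probe sets, made by the authors with RMA in Affymetrix Expression Console 1.3.0, per the submitters' processing notes. RMA equalises the arrays and compresses differences of dim probe sets. The sources used here do not give the genome build of the array annotation.

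From these values, probe sets with 1 gene symbol in the platform annotation (23521) were averaged per gene, Hfe2 was matched to Hjv through RefSeq synonyms (GRCm38.p6), and Iah1-KO minus Iah1-WT was computed (Python 3.11.15, pandas 2.3.3). With 1 array per genotype no test was made, genes were counted at 1.5-fold, and precision is limited by the number of arrays. The counting steps were tested on simulated data. The 10 genes and the 15 lists were chosen with earlier results of these data known. Named are the 10 genes, Iah1, and up to 4 genes per list with the largest absolute difference among those passing the filter. The other SMAD targets, Tmprss6, Il6, Stat3, Socs3, C1qa, C1qc and Alas2 were added after their values were seen. Bmp5, Ftl1 and Trf are also named outside these rules. Alternatives were loess (span 0.4), repeated quantile normalization, median subtraction, the brightest probe set, other filters and other fold thresholds. Upstream sequences were read from the RefSeq table and searched for exact letters.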

Additional observations from a re-analysis of the deposited data

How the results depend on the processing

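All 20 differences of the 10 genes recomputed with loess or repeated quantile normalization moved by less than the disagreement between probe sets. Of these genes only Tfrc, at 0.00, changed sign. Both alternatives rescale the same arrays, which were already equalised, so small movements do not show how reliable the differences are. Median subtraction adds the same 0.0052 to every gene, and the brightest probe set is the main value where a gene has 1 probe set, so neither bears on the stability of the 10 genes. Bmp2 stayed between -0.93 and -0.89, Bmp6 between -0.67 and -0.66, Hamp between 0.18 and 0.21, and Slc40a1 between -0.51 and -0.50. The count of the 10 genes higher by the threshold was 1 (Smad7) in place of 0 with loess, with repeated quantile normalization and at a threshold of 0.32 (log2). The count lower was 3 at 0.32, with Slc40a1 added, and 0 at 2-fold, in place of 2. Among all genes, 734 were higher and 1151 lower at 0.32, 15 and 34 at 2-fold, 572 and 576 without the intensity filter, and 18 and 61 with a filter at the 75th percentile, in place of 163 and 272. That stricter filter left Bmp2 and Bmp5 of the ligand genes, with a median of -0.55. No paired analysis was possible because each genotype has 1 array, and none could be left out. Dim genes such as Bmp6, Smad7 and Id1 are close to the filter, where differences scatter most.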

Other observations

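Iron carrier genes whose probe sets name several genes entered no comparison above. The 6 probe sets that name Ftl1, the ferritin light chain gene, together with its pseudogenes all lay above 0, from 0.11 to 0.48 (Iah1-KO minus Iah1-WT, log2), with a median of 0.25. These probe sets cannot be assigned to Ftl1 alone and may share probes, so they are not independent readings. The probe set of Trf, the transferrin gene, which also names Srprb, had 12.78 in the Iah1-KO array and 12.81 in the Iah1-WT array.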
